A study of Mus musculus with 15 samples.

Results

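The clustered protocadherins are the Pcdha, Pcdhb and Pcdhg genes of mouse chromosome 18. They were taken from the gene symbols alone, as every row named Pcdha, Pcdhac, Pcdhb, Pcdhga, Pcdhgb or Pcdhgc with its number. The rule found 58 genes among the 24421 symbols of the count table: 14 alpha, 22 beta and 22 gamma genes. Of these, 54 had enough counts to be tested (11 alpha, 21 beta and 22 gamma genes), as did 15843 genes of the whole table.

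RNA was sequenced from the cerebellum of FVB mice of 3 genotypes, with 5 libraries per genotype. Wild-type mice carried no transgene by the labels. ATXN1[82Q] mice carried Pcp2-ATXN1[82Q], a transgene of the spinocerebellar ataxia type 1 protein ATXN1 with an expanded glutamine tract. Mice of the third genotype carried Pcp2-ATXN1[82Q]V591A;S602D, the same expanded protein with a pair of amino acid substitutions known to weaken its binding to the transcriptional repressor CIC, called the substituted transgene here. The Pcp2 promoter is active in Purkinje cells, so neither transgene is placed in the other cells of the tissue by design. No genotype here carries an unexpanded ATXN1 transgene, and the level of the transgenes was not measured. The expansion and the substitutions therefore cannot be told apart from other differences between the genotypes. The age and sex of the mice are not in the labels used here. Whether the 5 libraries of a genotype are 5 animals is not in the labels either, and p-values therefore measure the spread between these libraries.

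Clustered protocadherins are cadherin-like proteins of the neuronal surface that bind the same protein on a facing membrane. In the alpha and gamma clusters, each gene has its own large first exon with its own promoter, which is spliced to a few constant exons shared by the whole cluster, whereas beta genes have no shared exon. Each neuron switches on its own set of promoters, with the help of CTCF and cohesin, so that neurons, Purkinje cells included, differ in their protocadherin surface. The C-type genes (Pcdhac1, Pcdhac2, Pcdhgc3, Pcdhgc4 and Pcdhgc5) lie at the ends of the alpha and gamma clusters and are used more uniformly between cells than the other genes. Gamma protocadherins are known for keeping the dendrites of a single neuron, including the Purkinje cell, from crossing each other.

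The gene structure decides what a count of a member can hold. In GRCm38 the alpha cluster spans chr18:36930184-37187661, the beta cluster chr18:37264938-37524479 and the gamma cluster chr18:37661793-37841873, all on the plus strand. The 14 alpha genes share 2860 bp of exon at the 3′ end and the 22 gamma genes share 2116 bp. The beta genes as a set share 0 bp, but the neighbours Pcdhb21 and Pcdhb22 overlap. Of their exons, 4250 of 4705 bp and 6154 of 6609 bp are unshared. Reads in shared exons fall on several genes at once, and levels per length are therefore given per kilobase of exon that no other member shares. Ambiguous reads of all genes together were 1.18% to 1.25% of the reads of a library, and the part from these exons is not known. Variable exons also resemble one another: between 10.1% and 23.4% of the 50-base words of the alpha genes outside the C-type also occur in another member, 0% to 11.99% of those of beta genes, 0% to 4.25% of those of gamma A genes, 2.67% to 17.9% of those of gamma B genes, and 0% of those of the 5 C-type genes. Alpha and gamma B values are for that reason less certain for single genes than C-type values. The library kit does not mark strand, and 13 of the 58 genes have an annotated gene on the opposite strand over their variable exon, among them Pcdhgc3 (BC037039, 1513 bp), Pcdha11, Pcdha12, Pcdhb12, Pcdhga1, Pcdhga10 and Pcdhga12. Reads from the 2 strands cannot be told apart at those genes.

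Of the 58 members, 4 were not tested. Pcdha4, Pcdha6 and Pcdha7 are listed at 0 counts in all 15 libraries. The table also has a read-through row that begins at the first exon of each of them and ends at the 3′ end of the gamma cluster (Gm37013, Gm38666 and Pcdha7-g), and these rows held at most 1, 4 and 2 counts in a library. Whether the read-through rows account for the zeros was not tested, and the zeros are not read as the level of these 3 genes. Pcdhb1, the first gene of the beta cluster, had 1 to 15 counts per library and failed the count filter.

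Counts on genes ran from 36467948 to 42818401 per library, of which 19658 to 26149 fell on members. Markers of the cell types a cerebellar sample can hold moved with genotype. In ATXN1[82Q] against wild type, 19 of 20 Purkinje cell markers and 10 of 14 granule cell markers were called lower, while all 12 microglial, 7 of 10 oligodendrocyte, 4 of 6 oligodendrocyte precursor and all 8 leptomeningeal markers were called higher. Interneuron markers were called higher for 4 and lower for 2 of 10, astrocyte and Bergmann glia markers higher for 5 and lower for 3 of 12, and endothelial and mural markers higher for 3 of 10. With the substituted transgene against wild type, 11 Purkinje cell and 2 interneuron markers were called lower, and edgeR called none higher (DESeq2 called Gfap of astrocytes and C1qa of microglia higher). The summed Purkinje cell markers had 12681 to 14332 CPM (counts scaled to the library total) in the wild-type libraries, 6024 to 6634 CPM in the ATXN1[82Q] ones and 9237 to 12248 CPM in the substituted ones, and no marker was at 0 in all libraries. The 12 choroid plexus markers were called in no direction in any comparison by edgeR or DESeq2, with 0 passing without adjustment, but their main transcript Ttr ranged from 4.26 to 4869 CPM and was under 100 CPM in 7 libraries (3 wild type, 2 ATXN1[82Q] and 2 substituted). Of 18 brainstem neuron markers, 4 were tested. In ATXN1[82Q] against wild type 2 of these were called higher (DESeq2 called 4 of 11), and their mean was 1.60 and 1.95 log2 units above wild type in ATXN1[82Q] replicates 2 and 5 and at most 0.84 in the other 13 libraries. These libraries are named again where a result rests on them.

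In wild-type cerebellum the C-type gene Pcdhgc3 was the most abundant member. Its level per kilobase of unshared exon was 61.0 ± 5.33 CPM per kb (SD, n = 5). Pcdhac2, the last gene of the alpha cluster, followed at 11.2 ± 1.35 CPM per kb. The next in order were Pcdhga11 at 7.54 ± 1.14, Pcdhgc4 at 6.47 ± 0.469 and Pcdhgb6 at 6.20 ± 0.690 CPM per kb. Differences between these 3 neighbours were not tested. Pcdhac1, the other C-type alpha gene, stood far lower, at 1.42 ± 0.174 CPM per kb, and Pcdhgc5 at 3.66 ± 0.507 CPM per kb.

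The genes outside the C-type all stood below Pcdhgc3 and Pcdhac2, whereas the C-type genes Pcdhac1, Pcdhgc4 and Pcdhgc5 lay within their range. The 9 tested alpha genes ran from 0.212 CPM per kb (Pcdha1) to 1.43 (Pcdha12) with a median of 0.808. The 21 beta genes ran from 0.647 (Pcdhb21) to 4.11 (Pcdhb20) with a median of 1.94, and the 19 gamma genes from 1.65 (Pcdhga1) to 7.54 (Pcdhga11) with a median of 4.01. In wild type, Pcdhac2 alone made 61.3% ± 2.46 of the summed CPM of the tested alpha genes. Pcdhgc3 made 41.4% ± 1.54 of that of the gamma genes (SD, n = 5 for both). The alpha sum below thus rests largely on 1 gene, whereas Pcdhgc3 made less of the gamma sum than the other gamma genes together.

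**Figure D1:**
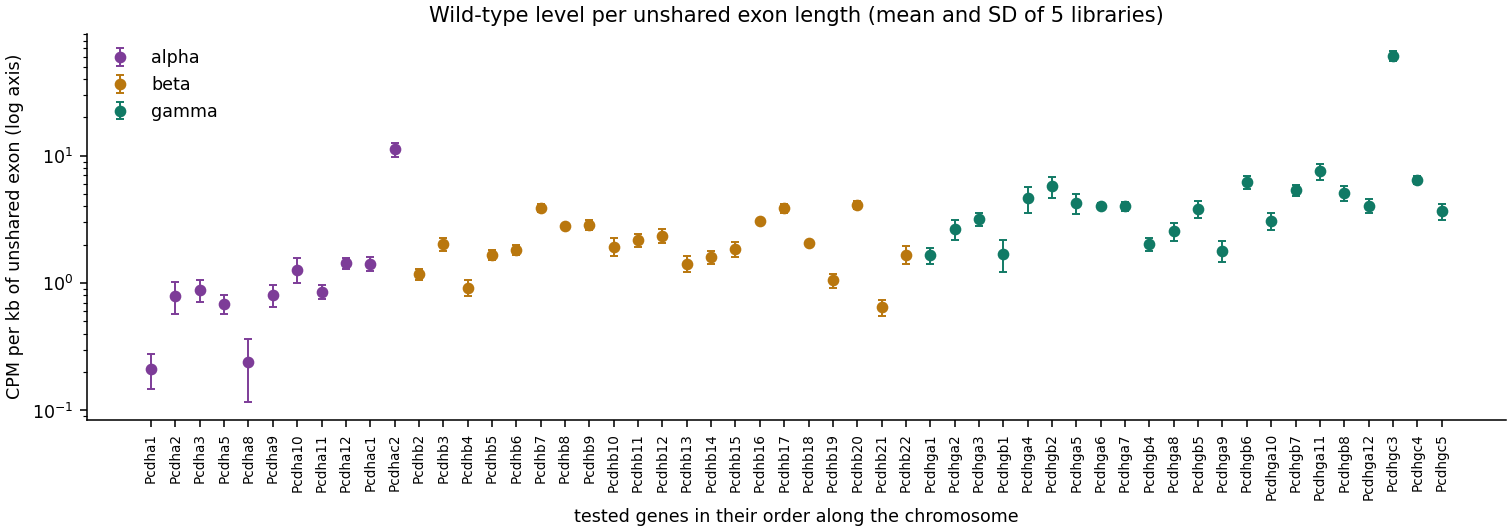
Wild-type level of each tested member in CPM per kb of unshared exon on a log axis, in the order of the genes along each cluster, as the mean of 5 libraries with SD. Pcdhgc3 stands at 61.0 CPM per kb and Pcdhac2 at 11.2, above every other member, and the alpha genes outside the C-type lie at or under 1.43.

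The alpha cluster had the lowest summed level in ATXN1[82Q] relative to wild type. Its sum was 47.4 to 62.5 CPM in the wild-type libraries (mean 55.4 ± 6.25), 33.8 to 45.5 in the ATXN1[82Q] libraries (40.4 ± 4.84) and 50.1 to 59.7 in the substituted ones (54.3 ± 3.50; SD, n = 5). The ATXN1[82Q] libraries lay below every library of the other genotypes, at 73.0% of the wild-type mean, whereas the substituted libraries lay within the wild-type range. The beta sum was 185 ± 7.06 CPM in wild type, 165 ± 7.94 CPM in ATXN1[82Q] mice and 184 ± 13.0 CPM in substituted mice, and ATXN1[82Q] stood at 89.3% of wild type. Its ranges were 179 to 196, 154 to 176 and 172 to 206 CPM, so that ATXN1[82Q] overlapped the substituted libraries but not wild type. The gamma sum was 379 ± 34.2, 315 ± 21.4 and 390.8 ± 21.4 CPM, and ATXN1[82Q] stood at 83.1% of wild type. Here wild-type replicate 1, at 329 CPM, lay within the ATXN1[82Q] range of 287 to 340 CPM. That library was low over most of the family, with 41 of 54 members below the wild-type mean, and wild-type replicate 3 was high, with 7 of 54 below it. Within ATXN1[82Q], replicate 4 was low (44 of 54 members below the group mean) and replicate 1 high (10 of 54). No test was made of these sums, since the members were chosen with results of these data known. In bulk tissue, fewer cells of a type and less RNA per cell cannot be told apart, and the part of the lower Purkinje and granule cell markers in these differences was not tested.

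**Figure D2:**
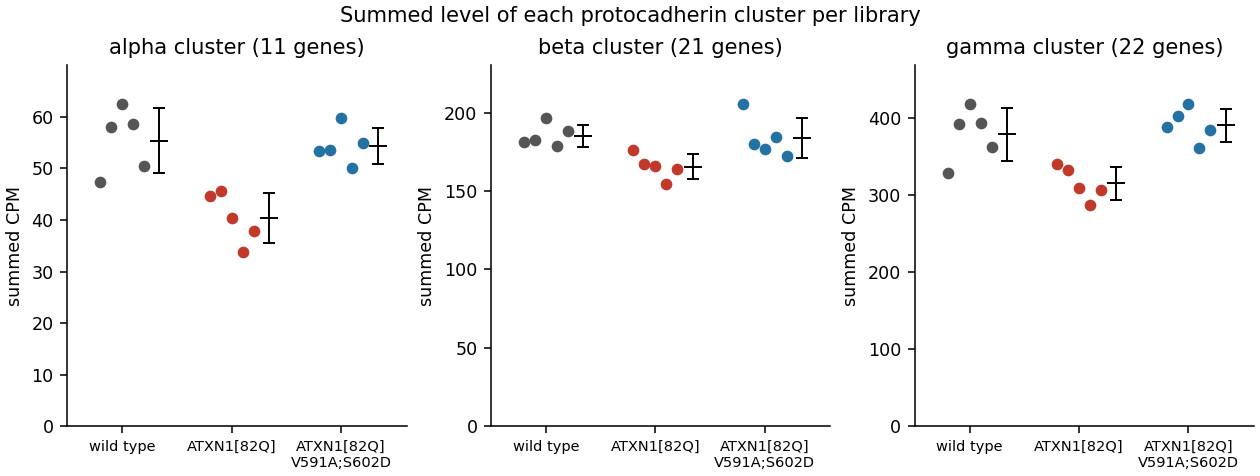
Summed CPM of the tested genes of each cluster in each library, with points for the 5 libraries of a genotype and the mean with SD beside them. ATXN1[82Q] libraries lie lowest in the alpha cluster (33.8 to 45.5 CPM) without overlap, and in the gamma cluster 1 wild-type library (329 CPM) falls among them.

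The comparison of ATXN1[82Q] with wild type asks how expression differs with this transgene. Here 15 of the 54 tested members were called lower and 0 higher. A call is an adjusted p under 0.05 in edgeR's quasi-likelihood test over all genes. Over all genes tested 14.9% were called lower and 16.6% higher in this comparison, 31.5% in all, against 27.8% and 0% of the members. The median log2 fold change was -0.20 over the members and 0.01 over all genes tested, with members from -1.13 to 0.10. Without adjustment, 21 members passed a p of 0.05 as lower and 0 as higher, and DESeq2 called 18 lower and 0 higher. The called genes were 5 of 11 alpha, 5 of 21 beta and 5 of 22 gamma genes. Only 6 members had ATXN1[82Q] libraries that lay wholly below wild type (Pcdhac1, Pcdhac2, Pcdhb8, Pcdhb16, Pcdhga6 and Pcdhgc3), against 9.79% of all genes tested, which is near the members' own share. None lay wholly above, against 9.36% of all genes tested.

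The count of 15 depended on single libraries. It was 9 without wild-type replicate 2 and 8 without wild-type replicate 3, the library with the highest member levels of its group. The share of all genes called in these fits was not counted, so the drop cannot be called particular to the members. The count was 6 among the 7 libraries with Ttr under 100 CPM, where 10.5% of all genes were still called lower. It was 8 without the 2 libraries high in brainstem markers, where 12.5% were. Of the 15 calls, 3 held under every alternative tried, and these were the C-type genes Pcdhac1, Pcdhac2 and Pcdhgc3.

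Pcdhac1 (chr18:37090013-37187657), which encodes a protocadherin that reaches the cell surface only together with other family members, had the largest difference of the family. Its level was 3.34, 4.03, 4.20, 3.38 and 3.22 CPM in the wild-type libraries, 1.73, 1.71, 1.96, 1.52 and 1.35 CPM in ATXN1[82Q], and 2.72, 2.49, 2.90, 2.25 and 2.99 CPM with the substituted transgene. The 3 genotypes did not overlap, with the substituted libraries between the other groups. Pcdhac1 fell 2.19-fold in ATXN1[82Q] against wild type (log2 fold change -1.13, SE 0.124, adjusted p = 2.91e-06), and over all alternatives the log2 fold change ran from -1.21 to -1.01. Its share of the summed alpha CPM was 6.57% ± 0.519 in the wild-type libraries, 4.11% ± 0.540 in the ATXN1[82Q] ones and 4.91% ± 0.375 in the substituted ones (SD, n = 5).

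Pcdhac2 (chr18:37143503-37187657), known for the spacing of serotonergic axons, was lower by less. Its wild-type libraries stood at 27.7, 36.5, 36.8, 37.0 and 31.9 CPM, the ATXN1[82Q] libraries at 27.5, 27.3, 25.4, 21.1 and 22.3 CPM, and the substituted libraries at 30.0, 32.6, 37.3, 30.1 and 34.4 CPM. Every ATXN1[82Q] library lay below every library of the other genotypes, although wild-type replicate 1 exceeded the highest of them by little. Pcdhac2 fell 1.37-fold against wild type (log2 fold change -0.46, SE 0.0922, adjusted p = 0.00118).

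Pcdhgc3 (chr18:37806364-37841873), known to promote dendrite branching and to bind Axin1, showed a fall of similar size at a much higher level. The wild-type libraries stood at 136, 168, 163, 167 and 150.0 CPM, the ATXN1[82Q] libraries at 124, 125, 120.1, 107 and 112 CPM, and the substituted libraries at 145, 163, 175, 148 and 156 CPM. Again no ATXN1[82Q] library reached the range of the other genotypes, and wild-type replicate 1 was the lowest of its group. Pcdhgc3 fell 1.33-fold (log2 fold change -0.42, SE 0.0636, adjusted p = 9.83e-05). It made 37.3% ± 1.01 of the gamma sum in ATXN1[82Q] and 41.4% ± 1.54 in wild type. Without Pcdhgc3, the gamma sum was 198 ± 14.3 CPM in ATXN1[82Q] mice, 222 ± 22.8 CPM in wild type and 234 ± 12.9 CPM in substituted mice (SD, n = 5).

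The remaining C-type genes, which lie directly downstream of Pcdhgc3 and share its constant exons, were not called. Pcdhgc4 (chr18:37815079-37841873), the gamma gene required for the survival of many neurons, stood at 17.9, 21.04, 19.2, 18.2 and 17.8 CPM in wild type, 21.04, 19.1, 16.8, 18.3 and 18.8 CPM in ATXN1[82Q] and 17.9, 19.5, 20.2, 19.1 and 19.3 CPM with the substituted transgene. The 3 genotypes overlapped throughout, and the log2 fold change against wild type was 0.00 with a 95% interval from -0.13 to 0.13 (adjusted p = 0.988). Pcdhgc5 (chr18:37819513-37841873), which binds GABA-A receptors, stood at 7.59, 11.2, 10.1, 10.0 and 9.14 CPM in wild type, 10.3, 10.1, 10.5, 9.96 and 9.45 CPM in ATXN1[82Q] and 10.3, 9.51, 9.79, 9.80 and 8.94 CPM with the substituted transgene. Its log2 fold change was 0.07 with a 95% interval from -0.10 to 0.24 (adjusted p = 0.552). The interval of neither gene reached the interval of Pcdhgc3, -0.55 to -0.28, although the difference between genes was not tested.

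**Figure D3:**
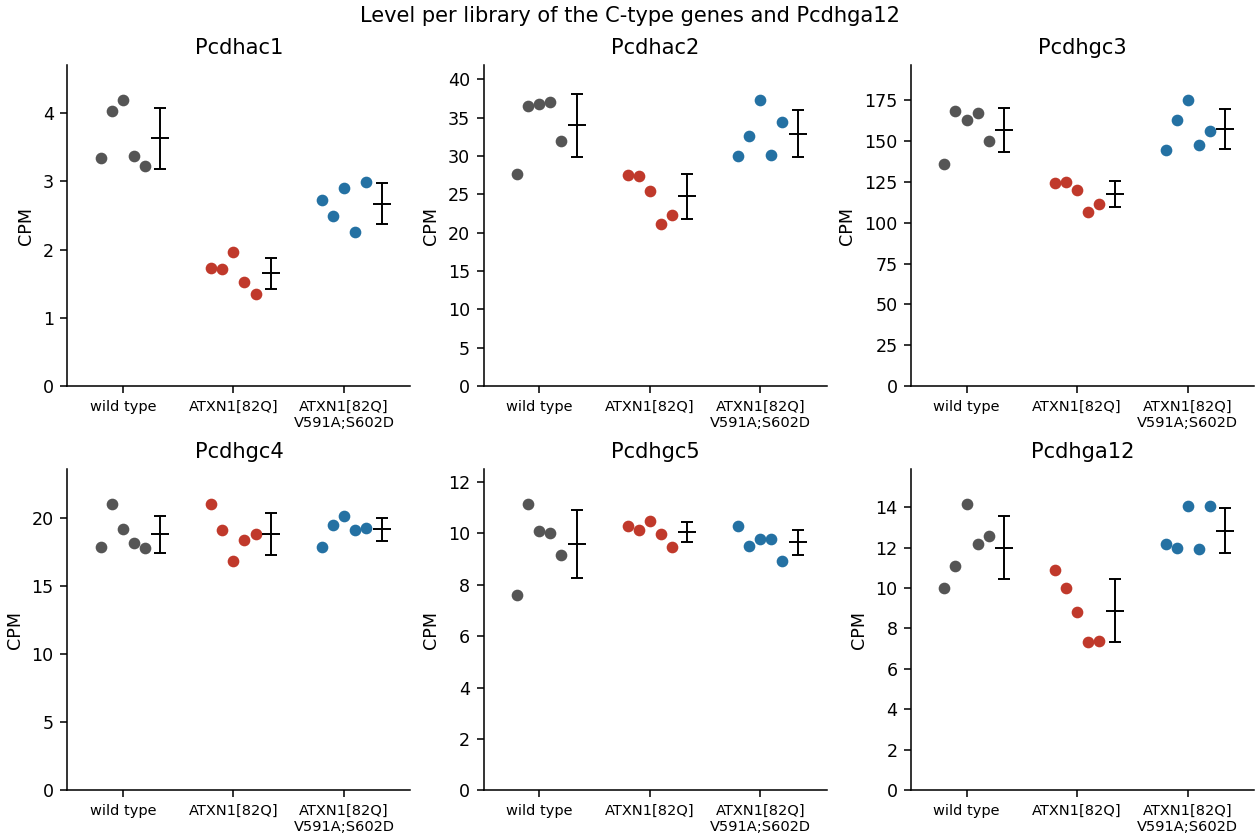
CPM of the 5 C-type genes and Pcdhga12 in each library, a panel per gene and a column of 5 points per genotype with the mean and SD. ATXN1[82Q] libraries lie below wild type in Pcdhac1, Pcdhac2 and Pcdhgc3 and overlap it in Pcdhgc4 (mean 18.8 in both) and Pcdhgc5.

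Among the other alpha genes, those called in ATXN1[82Q] against wild type were Pcdha9, Pcdha11 and Pcdha12. Pcdha12 stood at 3.11, 3.79, 3.98, 3.30 and 3.47 CPM in wild type, 2.18, 3.87, 2.25, 1.98 and 2.37 CPM in ATXN1[82Q] and 3.56, 3.83, 4.36, 3.55 and 4.21 CPM with the substituted transgene. All ATXN1[82Q] libraries but replicate 2 lay below wild type (log2 fold change -0.48, adjusted p = 0.0235). Pcdha9 stood at 1.78, 2.02, 2.25, 2.49 and 1.49 CPM in wild type and 1.49, 1.30, 1.77, 1.18 and 1.17 CPM in ATXN1[82Q], with overlap (log2 fold change -0.54, adjusted p = 0.0208). Pcdha11 was close to it (-0.55, adjusted p = 0.0202). Each of these 3 calls was lost without certain single libraries, at an adjusted p of 0.0513 to 0.0646. For Pcdha9 these were wild-type replicates 3 and 4 and ATXN1[82Q] replicates 4 and 5, for Pcdha11 wild-type replicate 2 and ATXN1[82Q] replicate 4, and for Pcdha12 wild-type replicates 2 and 3 and every ATXN1[82Q] replicate but 2. By position, 0 of the 5 tested alpha genes upstream of Pcdha9 were called lower, and 5 of the 6 from Pcdha9 on, the C-type genes included. Over all genes tested 14.9% were called lower, and the division was chosen after the values were seen. The upstream genes had an SE of 0.156 to 0.435 and those from Pcdha9 on an SE of 0.0922 to 0.168, so the calls set no boundary.

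Of the beta genes, whose proteins lack the constant cytoplasmic part of the other clusters, Pcdhb8, Pcdhb12, Pcdhb15, Pcdhb16 and Pcdhb19 were called lower in ATXN1[82Q] against wild type. Pcdhb16 stood at 15.5, 16.4, 16.9, 15.3 and 15.6 CPM in wild type, 14.8, 13.7, 14.0, 13.0 and 12.001 CPM in ATXN1[82Q] and 19.2, 17.3, 16.2, 14.3 and 15.7 CPM with the substituted transgene. Its ATXN1[82Q] libraries lay below wild type without overlap (log2 fold change -0.24, adjusted p = 0.0191), and the call was lost without wild-type replicate 3 or ATXN1[82Q] replicate 5 (adjusted p 0.0535 to 0.0568). Pcdhb19 stood at 5.95, 8.14, 8.29, 7.36 and 7.88 CPM in wild type and 6.11, 4.97, 6.86, 4.86 and 5.80 CPM in ATXN1[82Q], with wild-type replicate 1 among the ATXN1[82Q] values (-0.40, adjusted p = 0.0137). The log2 fold changes of Pcdhb12, Pcdhb15 and Pcdhb8 were -0.33 (adjusted p = 0.0177), -0.38 (0.0232) and -0.35 (0.0497). Pcdhb8 lost its call in 9 of the 10 fits that left out 1 library (all but ATXN1[82Q] replicate 2), Pcdhb15 without wild-type replicate 2 or 3 or ATXN1[82Q] replicate 1, and Pcdhb12 without wild-type replicate 3 (adjusted p 0.0525 to 0.104 over these fits). The 3 beta genes with the highest wild-type level, Pcdhb20, Pcdhb7 and Pcdhb17, were not called, with log2 fold changes of -0.12, -0.13 and -0.08 (adjusted p = 0.174, 0.283 and 0.399).

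Of the gamma genes outside the C-type, edgeR called 4 of 12 gamma A genes and 0 of 7 gamma B genes lower in ATXN1[82Q] against wild type, and 6 and 2 passed without adjustment. DESeq2 called the gamma B genes Pcdhgb2 (adjusted p = 0.0313) and Pcdhgb5 (0.0459) lower, as did edgeR after the GC correction (0.0496 and 0.0374), and a difference between the subfamilies was not tested. Gamma A and gamma B genes alternate along the cluster and encode subfamilies that differ in their extracellular sequence. Pcdhga12, the last of them before the C-type genes, stood at 10.0, 11.1, 14.2, 12.2 and 12.6 CPM in wild type, 10.9, 10.0, 8.80, 7.33 and 7.40 CPM in ATXN1[82Q] and 12.2, 11.97, 14.0, 11.9 and 14.1 CPM with the substituted transgene. ATXN1[82Q] overlapped wild type and lay below all substituted libraries (log2 fold change against wild type -0.44, adjusted p = 0.00719). Pcdhga6 stood at 10.2, 10.3, 11.0, 10.1 and 11.4 CPM in wild type and at 10.0, 8.34, 7.58, 5.17 and 8.19 CPM in ATXN1[82Q], with ATXN1[82Q] replicate 1 just under the lowest wild-type library (-0.43, adjusted p = 0.0174). Pcdhga1 (-0.38, adjusted p = 0.0244) and Pcdhga10 (-0.25, adjusted p = 0.0423) were also called. Pcdhga1 lost its call without wild-type replicate 1 or 2 or ATXN1[82Q] replicate 1 or 2, and Pcdhga10 without wild-type replicate 2, 3 or 4 or any ATXN1[82Q] replicate but 1 (adjusted p from 0.0513 to 0.133). Pcdhga11 and Pcdhgb6, the most abundant genes of these subfamilies, were not called (-0.25, adjusted p = 0.113, and -0.02, adjusted p = 0.867). Calls in ATXN1[82Q] against wild type that no single left-out library ended were 6: Pcdhac1, Pcdhac2, Pcdhb19, Pcdhga6, Pcdhga12 and Pcdhgc3. For the other 9, every one of the 10 wild-type and ATXN1[82Q] libraries ended at least 1 call when left out.

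**Figure D4:**
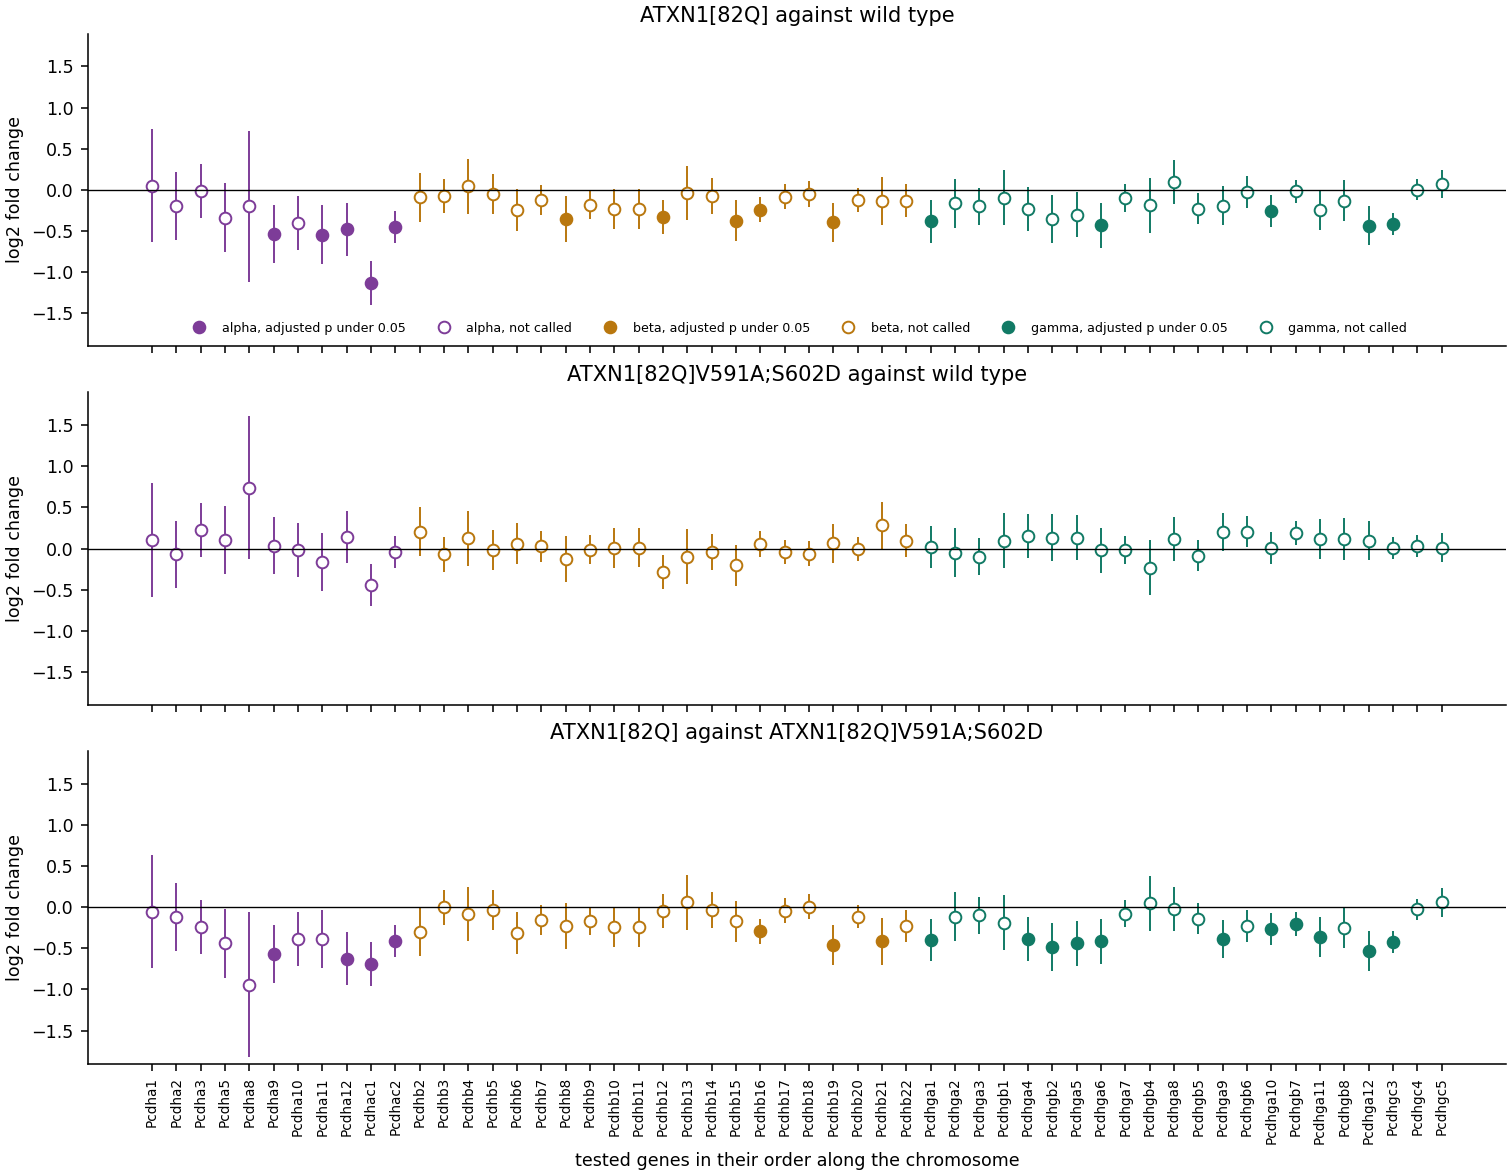
Log2 fold change of each tested member in the 3 comparisons, in the order of the genes along each cluster, with 95% intervals and filled points for calls at an adjusted p under 0.05. Filled points lie below 0 in both comparisons of ATXN1[82Q] (15 against wild type and 18 against the substituted transgene), and the substituted transgene against wild type has 0.

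The comparison of the substituted transgene with wild type asks how expression differs with that transgene. No member was called by edgeR, 0 of 54 higher and 0 of 54 lower, where 0.208% and 1.20% of all genes tested were called (223 genes, 1.41%, in either direction). Without adjustment, 2 members passed as higher and 2 as lower, and DESeq2 called 1 lower and 0 higher. The median log2 fold change was 0.01 over the members and 0.01 over all genes tested. The member called by DESeq2 was Pcdhac1 (adjusted p = 0.0345), which in edgeR had a log2 fold change of -0.44 with a 95% interval from -0.70 to -0.19 (adjusted p = 0.0927). It was also the only member whose substituted libraries lay wholly below wild type, as did those of 2.03% of all genes tested. No member lay wholly above, as 1.13% of all genes did.

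The other C-type genes stayed close to wild type with the substituted transgene. The log2 fold change of Pcdhgc3 was 0.01 with a 95% interval from -0.13 to 0.14, and that of Pcdhac2 was -0.05 with an interval from -0.24 to 0.15. These intervals did not include the values of ATXN1[82Q] against wild type for the same genes, -0.42 and -0.46. Pcdhgc4 and Pcdhgc5 had log2 fold changes of 0.03 and 0.01. The largest positive value of a member was that of Pcdha8, 0.74 (adjusted p = 0.526), a gene of 0.277 to 0.921 CPM in wild type and 0.623 to 1.31 CPM with the substituted transgene, which rested on few counts.

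The 2 transgenes were compared directly to ask where these genotypes differ. Here 18 of 54 members were called lower in ATXN1[82Q] than with the substituted transgene and 0 higher. Over all genes tested 14.6% were called lower and 13.5% higher, 28.1% in all, against 33.3% and 0% of the members. Without adjustment, 26 members passed as lower and 0 as higher, and DESeq2 called 20 lower and 0 higher. The median log2 fold change was -0.23 over the members and 0.01 over all genes tested. ATXN1[82Q] libraries lay wholly below the substituted ones in 7 members (Pcdhac1, Pcdhac2, Pcdhga9, Pcdhga10, Pcdhga12, Pcdhgb7 and Pcdhgc3), against 9.61% of all genes tested, and wholly above in none, against 8.28%. This comparison shares the ATXN1[82Q] libraries with the first and is no independent repeat of it. In it, 19 of 20 Purkinje cell and all 14 granule cell markers were also called lower and all 12 microglial markers higher, and their part in the members' values was not tested.

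By cluster, 4 of 11 alpha, 3 of 21 beta and 11 of 22 gamma genes were called lower in ATXN1[82Q] than with the substituted transgene. Gamma A genes made 8 of the 11 (of 12 tested), gamma B genes 2 (of 7) and Pcdhgc3 the last. Among the 7 libraries with Ttr under 100 CPM, 2 of the 18 calls were left, Pcdhgc3 and Pcdha12, where 5.7% of all genes were called lower. The count was 12 without ATXN1[82Q] replicate 4 or without substituted replicate 1, and 13 without substituted replicate 3.

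Pcdhac1 again had the largest called difference of the family. It fell 1.61-fold (log2 fold change -0.69, SE 0.125, adjusted p = 0.000761). Pcdhgc3 fell 1.34-fold (-0.42, SE 0.0635, adjusted p = 0.000166) and Pcdhac2 1.33-fold (-0.41, SE 0.0922, adjusted p = 0.00348). Pcdhgc4 and Pcdhgc5 were not called, with log2 fold changes of -0.03 (95% interval -0.16 to 0.10) and 0.06 (-0.11 to 0.23).

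Of the other genes, Pcdhga12 (-0.53, adjusted p = 0.00235), Pcdha12 (-0.63, adjusted p = 0.00600), Pcdhb19 (-0.46, adjusted p = 0.00645) and Pcdhb16 (-0.29, adjusted p = 0.00691) were called in both comparisons of ATXN1[82Q], as were Pcdha9, Pcdhga1, Pcdhga6 and Pcdhga10. Pcdhga9, Pcdhgb2, Pcdhga5, Pcdhga11, Pcdhgb7, Pcdhb21 and Pcdhga4 were called against the substituted transgene and missed the threshold against wild type (log2 fold changes from -0.48 to -0.21, adjusted p from 0.0141 to 0.0328, against the substituted transgene). Pcdhgb2 and Pcdhga5 passed against wild type under some alternatives, Pcdhgb2 with DESeq2 among them, and the difference between the comparisons was not tested. Pcdhga9 stood at 3.97, 4.78, 5.82, 5.16 and 3.73 CPM in wild type, 4.09, 4.18, 4.06, 4.25 and 3.95 CPM in ATXN1[82Q] and 5.52, 5.90, 5.07, 5.70 and 4.73 CPM with the substituted transgene. Its wild-type libraries spread across both transgenic groups. Pcdhgb2 stood at 13.1, 14.6, 19.0, 14.7 and 11.8 CPM in wild type, 14.7, 12.7, 9.56, 9.86 and 10.5 CPM in ATXN1[82Q] and 20.4, 14.8, 14.7, 15.1 and 15.2 CPM with the substituted transgene. Of the 18 calls, 10 were kept in every fit that left out 1 library. The other 8 (Pcdhb21, Pcdhga1, Pcdhga4, Pcdhga5, Pcdhga6, Pcdhga10, Pcdhga11 and Pcdhgb7) were each lost without at least 1 of the ATXN1[82Q] libraries or of substituted replicates 1, 2, 3 and 5, with adjusted p from 0.0504 to 0.101.

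The variation of members from library to library within a genotype was also described, without other genes as a background. After the genotype means were removed, the log2 CPM of Pcdhac2 correlated most with that of Pcdhgc3 (Pearson r = 0.964 over 15 libraries), then with Pcdhga12 (0.815) and Pcdhgb8 (0.761). Pcdhac2 and Pcdhgc3 are in different clusters, share no exon and no 50-base word, and have the highest GC content of variable exons among the members, 57.0% and 56.8%. After counts were corrected for GC content, their r was 0.973. Besides Pcdhac2, Pcdhgc3 was most like Pcdhga5 (0.754) and Pcdhgb7 (0.748). Pcdhb20, the most abundant beta gene per length, was most like the beta genes Pcdhb19 (0.663), Pcdhb10 (0.546) and Pcdhb11 (0.494). Over all pairs within a cluster, the median r was 0.330 for alpha (55 pairs), 0.231 for beta (210 pairs) and 0.378 for gamma (231 pairs). It was 0.291 between alpha and gamma genes, 0.179 between alpha and beta genes and 0.129 between beta and gamma genes. The share of pairs with a positive r ran from 68.6% between beta and gamma genes to 84.4% within gamma. The points of these correlations share libraries and depth, and low genes add counting noise, so they are given as a description.

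Among 25 tested genes known to shape the architecture or chromatin of the clusters, 8 were called lower and 1 higher in ATXN1[82Q] against wild type (all genes tested 14.9% and 16.6%), 0 with the substituted transgene against wild type (3 passed without adjustment, and DESeq2 called Wiz lower), and 12 lower and 0 higher in ATXN1[82Q] against the substituted transgene (all genes 14.6% and 13.5%). The medians were -0.09, 0.01 and -0.13 log2 units. Wiz, a zinc finger partner of CTCF and cohesin, had 104 ± 5.14 CPM in wild type, 67.6 ± 2.62 CPM in ATXN1[82Q] mice and 89.1 ± 8.31 CPM in substituted mice (SD, n = 5; log2 fold change of ATXN1[82Q] -0.62, adjusted p = 2.20e-07, against wild type and -0.40, adjusted p = 6.96e-05, against the substituted transgene). The DNA methyltransferase Dnmt3a (-0.22, adjusted p = 0.00137) and the methylcytosine dioxygenase Tet3 (-0.20, 0.00517) were also lower against wild type. Tet3 (-0.27, adjusted p = 0.000599) and the cohesin regulator Pds5a (-0.28, 0.00145) were lower against the substituted transgene.

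Another list held genes linked to protocadherin signalling or binding, of which 19 were tested. In ATXN1[82Q] against wild type, 3 were called higher and 5 lower (all genes tested 16.6% and 14.9%). With the substituted transgene against wild type, 0 were called (4 passed without adjustment, and DESeq2 called Abi2 lower). Between the transgenes, 3 were called higher and 4 lower (all genes 13.5% and 14.6%). Cyfip2 and Nckap1, subunits of the actin-regulating WAVE complex that some clustered protocadherins bind, had log2 fold changes against wild type of -0.24 (adjusted p = 0.000125) and -0.22 (0.000885). The neuroligin Nlgn2 was lower (-0.23, 0.000704) and Marcks, a substrate of protein kinase C, higher (0.33, 0.000567). Of the 6 genes for shedding and gamma-secretase cleavage, which release the cytoplasmic part of protocadherins, Aph1a (0.13, adjusted p = 0.0108) and Psenen (0.13, 0.0444) were higher against wild type, and none passed in the other comparisons by edgeR. Without adjustment 0 passed with the substituted transgene against wild type and 2 between the transgenes, where DESeq2 called 0 and 1.

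The non-clustered protocadherins, which lie outside these clusters, were called in both directions, as genes were over the whole table. In ATXN1[82Q] against wild type, 2 of 12 were called higher and 3 lower (all genes tested 16.6% and 14.9%), 0 with the substituted transgene against wild type (2 passed without adjustment, and DESeq2 called 0), and 2 higher and 3 lower between the transgenes (all genes 13.5% and 14.6%). Pcdh20 had 12.9 ± 1.21 CPM in wild type and 7.70 ± 0.532 CPM in ATXN1[82Q] (SD, n = 5; log2 fold change -0.74, adjusted p = 1.01e-05) and Pcdh8 had 1.28 ± 0.250 and 2.18 ± 0.344 CPM (0.77, adjusted p = 0.00129). Pcdh10 was higher (0.22, 0.00613) and Pcdh1 lower (-0.25, 0.00993). Of 7 tested genes beside or between the clusters, 1 was called in ATXN1[82Q]: Zmat2, upstream of the alpha cluster, was lower against wild type (-0.18, adjusted p = 0.000562) and against the substituted transgene (-0.13, adjusted p = 0.00876).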

How the data were processed

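Total RNA (10 ng) was copied with primers for the poly(A) tail and random positions, by a kit that does not mark strand, per the labels' protocols. Per the submitters' processing notes, the authors used STAR 2.5.3a, the mm10 build, HTSeq and DESeq2. The deposited values are whole-number gene counts, not normalised. No strand setting, counting mode or annotation release is given in the sources used here. Multiply aligned reads were 12.8% to 14.6% and reads outside genes 16.8% to 18.2%, and both stayed out of library sizes.

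Groups came from the genotype labels. All 15843 genes that passed filterByExpr (minimum count 10) were fitted in edgeR 4.0.16 (R 4.3.3) with a quasi-likelihood F-test, all 15 libraries in one fit, TMM factors (0.968 to 1.04) and Benjamini-Hochberg adjustment. The TMM factors were 0.968 to 0.994 in wild type, 1.02 to 1.04 in ATXN1[82Q] and 0.980 to 1.003 with the substituted transgene. CPM values are TMM-scaled, and log2 CPM used a prior count of 2. Intervals cover library-to-library spread only. The reads were amplified and carry no molecular identifier, so they do not count molecules. Gene positions came from GENCODE M21 (GRCm38, the same build as mm10), with RefSeq for Pcdha10 and the read-through rows. Within each genotype every pair of libraries differed beyond sampling noise (30 pairs, chi-square over its degrees of freedom 5.49 to 38.8). The script was tested on simulated counts.

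Members, gene lists and tests were chosen with earlier results of these data known. Named members were those called in any comparison (at most 24), the 5 C-type genes and the 3 highest per cluster in wild type. From other lists, up to 4 called genes per comparison were named by adjusted p, and a gene that this rule takes is not reported here. Pcdha8 was chosen after its values were seen, as were genes named with their read-through or opposite-strand partners. Alternatives were RLE size factors, DESeq2 1.42.0, testing without the count filter, fitting only 2 genotypes, a replicate block, marker means as covariates, libraries low in Ttr or brainstem markers, and each library left out. A correction for GC content was added after the data were seen.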

Additional observations from a re-analysis of the deposited data

Results flagged for a closer look

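Of 90 sets of 5 libraries tested for a distant value (27 named members and the 3 cluster sums, by genotype), 2 held one, where chance gives about 1 in 20. Pcdha12 in ATXN1[82Q] replicate 2 stood at 3.87 CPM, and the other 4 libraries of its genotype at 1.98 to 2.37 CPM. Replicate 2 is also 1 of the 2 libraries high in brainstem markers. Pcdhgb2 with the substituted transgene stood at 20.4 CPM in replicate 1 and at 14.7 to 15.2 CPM in the other 4 libraries.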

How the results depend on the processing

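Called lower in ATXN1[82Q] against wild type were 15 members, and 6 among libraries with Ttr under 100 CPM, 8 among libraries low in brainstem markers and 7 with the brainstem mean as a covariate. These settings have fewer libraries or a further term. The share of all genes called was not counted with the covariate or with 1 library left out. Leaving out 1 library gave 8 (without wild-type replicate 3) to 17 (without wild-type replicate 5). For ATXN1[82Q] against the substituted transgene the count of 18 became 2 among libraries with Ttr under 100 CPM, and 12 to 19 when 1 library was left out. For the substituted transgene against wild type it was 0, and 1 with DESeq2, and 0 in each fit with 1 library left out. Called higher were 0 members in every fit but 1: without substituted replicate 4, Pcdhb1 passed in ATXN1[82Q] against the substituted transgene (log2 fold change 1.30, adjusted p = 0.0485). Of 33 calls, 5 held under every alternative: Pcdhac1, Pcdhac2 and Pcdhgc3 in ATXN1[82Q] against wild type, and Pcdhgc3 and Pcdha12 between the transgenes. None reversed. Libraries with the same replicate number did not as a rule deviate together (r above 0.1 in 4 of 15 pairs, median r -0.109). The highest r were 0.568 between wild-type and ATXN1[82Q] replicate 5 and 0.495 between ATXN1[82Q] and substituted replicate 1. The lowest was -0.434, between wild-type and substituted replicate 4. With the replicate block the counts lower were 15, 0 and 19. Pcdha4, Pcdha6, Pcdha7 and Pcdhb1 are outside what these counts resolve.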
